A study of Mus musculus with 6 samples.

Results

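The 33 genes described here encode the proteins that fold, hydroxylate, glycosylate, export, trim and crosslink collagen. They were chosen by name, as prolyl and lysyl hydroxylases, chaperones, reticulocalbins, propeptide-processing proteins and lysyl oxidases, with earlier results of these data known. All 33 were found among the 51912 genes of the deposited table. Transcripts had been sequenced from primary fibroblasts of mice, kept for 48 h with the chemokine CXCL3 (3 libraries) or under control conditions (3 libraries), from mice aged 6 weeks. CXCL3 is a secreted CXC chemokine whose known receptor is CXCR2, and the series title sets the comparison in work on myofibroblasts and the spread of pancreatic cancer. No genotype, strain, organ of origin or dose is given in the labels, which also do not say whether replicates were separate cultures or animals. The p-values therefore measure only the spread between these libraries, which may be technical.

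Collagen chains are modified while they are still unfolded in the endoplasmic reticulum. Prolyl hydroxylases stabilise the future triple helix, lysyl hydroxylases and glycosyltransferases prepare lysines for later crosslinking, and isomerases and chaperones let the helix zip up and keep it soluble. The finished procollagen leaves in enlarged transport carriers, loses its propeptides outside the cell and assembles into fibrils, which lysyl oxidases then join covalently. Fibroblasts and myofibroblasts are the main producers of fibrillar collagen, and inherited defects in many of these genes cause brittle bones or lax connective tissue.

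Levels are in TPM, the usual scaled transcript abundance, a share of a library's transcripts that is corrected for transcript length and keeps no record of read depth, so the depth is unknown and no value has a counting interval. Genes with at least 1 TPM in at least 3 of the 6 libraries were tested, 13139 in all, on log2(TPM + 1) with limma, and p-values were adjusted over all of them by the method of Benjamini and Hochberg, with a threshold of 0.05. An exact permutation of 3 against 3 libraries cannot give a p below 0.1, and was therefore not used for single genes. Controls 2 and 3 lay on one side of the first principal component (36.6 and 26.6) and the other 4 libraries on the other (-19.2 to -9.39). Deviations of genes from their mean over the 6 libraries correlated with transcript length in opposite directions in these 2 sets (Spearman -0.50 and -0.48 across genes in controls 2 and 3, 0.20 to 0.45 in the other libraries), which does not show which libraries are off. Fibroblast markers were present, with Col1a1 at 567 to 633 TPM and Dcn at 283 to 288 TPM with CXCL3. In controls Col1a1 was at 581 to 973 TPM and Dcn at 300 to 328 TPM. Pdgfra, Pdgfrb and Thy1 had means of 13.6, 21.9 and 18.7 TPM with CXCL3 and 12.2, 22.1 and 22.6 TPM in controls. Lum was at only 0.06 to 0.50 TPM across all 6 libraries and was not tested. The summed level of the fibroblast markers was 1350 to 1444 TPM with CXCL3 and 1391 to 2076 TPM in controls. Of the 6 markers tested, 4 had a negative and 2 a positive fold change, with a median of -0.18 (0.07 over all genes). Among these, Dcn alone lay below all controls. Macrophage markers were abundant as well, all 12 of them tested and none at 0. Their summed level was 15012 to 15108 TPM with CXCL3 and 15320 to 18322 TPM in controls, most of it from the lysozyme gene Lyz2. Of the 12, 7 had a negative and 5 a positive fold change, 4 lay below all controls (9.31% of all genes did) and 1 above all controls (7.92%). C1qa was called lower (log2 fold change -0.78, limma, adjusted p = 0.0493), and Mrc1 lay above all controls without passing (0.53, 0.248). Summed markers of epithelium (1.32 to 1.96 TPM with CXCL3, 0.99 to 1.7 TPM in controls) and endothelium (2.39 to 3.82 and 1.66 to 2.74 TPM) were near 0. Those of pancreatic acinus (23.6 to 26.2 and 25.4 to 27.5 TPM, nearly all Cela1), mesothelium (29.9 to 31.9 and 22.4 to 33.7 TPM, mostly Wt1) and pericytes and smooth muscle (14 to 14.4 and 13.95 to 15.5 TPM, mostly Des) were low. In such bulk samples fewer cells of a type and less RNA per cell cannot be told apart. The part of fibroblast or macrophage content in the results below was not tested.

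Most genes of collagen maturation had lower levels with CXCL3, by small amounts, and 1 of them passed the test. Rcn3, which encodes a reticulocalbin (a protein of the secretory pathway that binds calcium), was the only member that passed, as lower with CXCL3. Of the 33 genes 30 were tested, since P3h2, Colgalt2 and Tll1 stayed below the filter. A lower call was made for 1 of the 30 (3.33%), against 0.129% of all genes tested (17 of 13139), and a higher call for 0 of the 30, against 0.0304% of all genes. At an unadjusted p under 0.05, limma found 9 of the 30 lower and 0 higher, where 5.65% of all genes were lower and 5.93% higher. All 3 CXCL3 libraries lay below all 3 controls for 11 of the 30 genes (36.7%), against 9.31% of all genes tested, and above all controls for 0 of the 30, against 7.92%. The fold change was negative for 24 of the 30 genes (80%), against 37.7% of all genes, and its median was -0.11 on the log2 scale, against 0.07 over all genes.

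**Figure D1:**
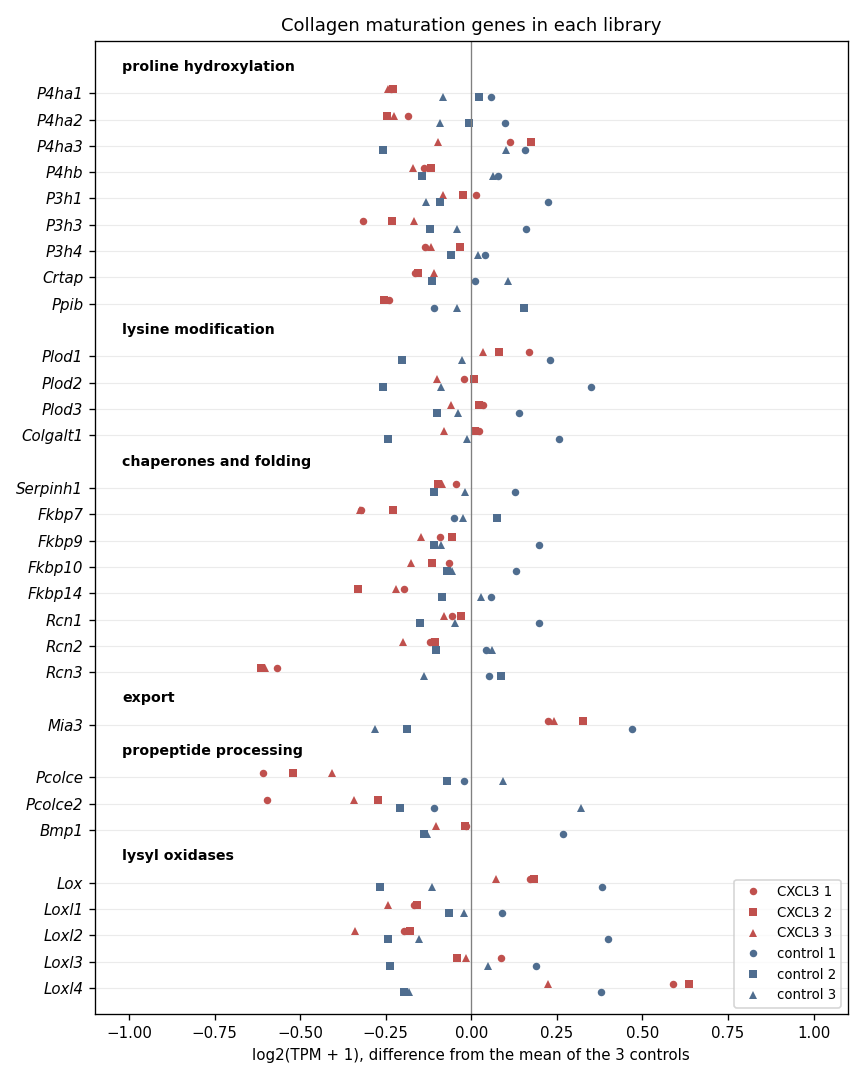
Level of each of the 30 tested genes in each library, as the difference in log2(TPM + 1) from the mean of the 3 controls, by role; red symbols are CXCL3 libraries and blue symbols controls, with circles, squares and triangles for replicates 1, 2 and 3. Rcn3 and Pcolce lie farthest to the left of their controls with no overlap, and for Lox, Loxl2, Bmp1 and Mia3 control 1 lies far to the right of controls 2 and 3.

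RefSeq promoter entries were found for 22 of the 33 genes, with 25 start sites. The 5 shown belong to the genes with an entry that had the smallest unadjusted p among those whose groups did not overlap, and of these 5 only Rcn3 passed the test. Each line gives the 250 bases before the RefSeq start, 5′ to 3′ on the gene's strand, on build GRCm38.p6, with matches to the motifs named below in capitals.
Rcn3: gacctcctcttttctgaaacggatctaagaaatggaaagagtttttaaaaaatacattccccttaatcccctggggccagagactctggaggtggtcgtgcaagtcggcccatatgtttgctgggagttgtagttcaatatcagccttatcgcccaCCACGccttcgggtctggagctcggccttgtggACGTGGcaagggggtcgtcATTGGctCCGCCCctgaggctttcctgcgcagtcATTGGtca
Pcolce: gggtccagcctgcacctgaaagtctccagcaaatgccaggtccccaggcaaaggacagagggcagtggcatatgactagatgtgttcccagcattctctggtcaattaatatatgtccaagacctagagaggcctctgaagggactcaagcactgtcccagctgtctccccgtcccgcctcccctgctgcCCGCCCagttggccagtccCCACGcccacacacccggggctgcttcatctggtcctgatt
Fkbp7: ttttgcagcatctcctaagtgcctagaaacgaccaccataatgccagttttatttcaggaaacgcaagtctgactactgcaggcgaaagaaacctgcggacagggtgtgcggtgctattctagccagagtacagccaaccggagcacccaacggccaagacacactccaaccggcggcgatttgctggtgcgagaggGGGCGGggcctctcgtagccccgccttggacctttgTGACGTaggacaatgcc
P4ha1: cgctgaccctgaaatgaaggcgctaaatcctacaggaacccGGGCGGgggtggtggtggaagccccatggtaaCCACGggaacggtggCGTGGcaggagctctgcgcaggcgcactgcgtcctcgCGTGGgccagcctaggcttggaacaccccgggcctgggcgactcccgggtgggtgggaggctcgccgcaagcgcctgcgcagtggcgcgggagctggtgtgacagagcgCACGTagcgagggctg
Ppib: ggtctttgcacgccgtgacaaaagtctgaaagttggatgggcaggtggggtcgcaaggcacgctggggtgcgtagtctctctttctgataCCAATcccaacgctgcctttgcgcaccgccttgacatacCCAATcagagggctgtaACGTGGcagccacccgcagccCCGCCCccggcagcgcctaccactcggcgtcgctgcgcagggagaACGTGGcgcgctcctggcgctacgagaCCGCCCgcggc
The windows lie at chr7:45092214-45092463 on the minus strand for Rcn3, chr5:137611405-137611654 (minus) for Pcolce, where GENCODE M21 lets the gene reach further upstream to 137613784, chr2:76673099-76673348 (minus) for Fkbp7, chr10:59323046-59323295 (plus) for P4ha1 and chr9:66059919-66060168 (plus) for Ppib. The motifs were searched on both strands as exact letters. The letters GGGCGG were searched as the GC box, to which factors of the SP family bind. All 5 windows hold one, as do 68% of the 25 member windows and 32.7% of all 32851 windows of the table. The hypoxia core was searched as ACGTG and stands in Rcn3, P4ha1 and Ppib, in 40% of the member windows and in 16.6% of all windows. One arm of the endoplasmic reticulum stress response element was searched as CCACG. It stands in Rcn3, Pcolce, P4ha1 and Ppib, in 56% of the member windows and in 28.3% of all windows, and it can share bases with the hypoxia core, as it does in Rcn3 and Ppib. The letters CCAAT, known as a promoter box of that name, stand in Rcn3 and Ppib, in 40% of the member windows and in 33.8% of all windows. The core of the cAMP response element was searched as TGACGT, which can share bases with the hypoxia core. It stands only in Fkbp7 among the 5 shown, in 16% of the member windows and in 6.47% of all windows. The TATA box was searched as TATAAA and stands in none of the 5, in 8% of the member windows and in 12.4% of all windows. The whole stress response element, which joins the CCAAT box to that arm at a fixed spacing, was in 0 of the 25 member windows and in 0.113% of all windows. These matches describe letters in a window and are not measured binding sites, and no window was compared for its base composition. All windows were counted whether or not their genes were expressed in these libraries, so the shares do not compare members with other expressed genes.

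Reticulocalbins bind calcium through EF-hand motifs, and mice without Rcn3 are known to fail to breathe after birth. Rcn3 (ENSMUSG00000019539) lies on chromosome 7 from 45082913 to 45092221 on the minus strand of GRCm38. Its level was 282, 273 and 276 TPM in CXCL3 libraries 1, 2 and 3, and 434, 444 and 381 TPM in controls 1, 2 and 3. The groups did not overlap and lay far apart, with control 3 the lowest of the controls. The means were 277 ± 4.79 TPM with CXCL3 and 420 ± 34.2 TPM in controls (SD, n = 3 each), a log2 fold change of -0.59 ± 0.07 (SE) or 1.51-fold lower with CXCL3 (limma, adjusted p = 0.0493). The call is narrow. Over 17 alternative settings the fold change of Rcn3 kept its sign and lay between -0.67 and -0.53, while its adjusted p ranged from 0.00538 to 0.319 and passed in 6 of them. Leaving out control 3 gave 0.10, control 2 gave 0.103, and any 1 CXCL3 library gave 0.295 to 0.319, whereas leaving out control 1 gave 0.00538. An antisense gene on the opposite strand, Gm45669, overlaps Rcn3 at a mean of 0.175 TPM, and no source used here says whether reads were assigned by strand.

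The relatives of Rcn3 did not move with it to the same extent. Rcn1 was at 165, 168 and 162 TPM with CXCL3 and at 197, 154 and 166 TPM in controls, so that the groups overlapped (log2 fold change -0.06 ± 0.09, limma, adjusted p = 0.779). Rcn2 was at 127, 128 and 120 TPM with CXCL3 and at 142, 128 and 144 TPM in controls, where control 2 lay just above the highest CXCL3 library, so that the groups touched without overlap (-0.14 ± 0.07, 0.464). Rcn3 made up 49.2, 48.0 and 49.4% of the summed TPM of the 3 reticulocalbins with CXCL3, and 56.2, 61.1 and 55.1% in controls. The level of Rcn3 was 1.63 to 1.71 times that of Rcn1 in CXCL3 libraries and 2.21 to 2.88 times in controls. These ratios stand within a library and do not depend on its scaling, but non-overlap of this kind was common: of the 435 ratios between any 2 of the 30 genes, 35.2% did not overlap between the groups. Ratios named here were chosen after the values were seen and were not tested.

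**Figure D2:**
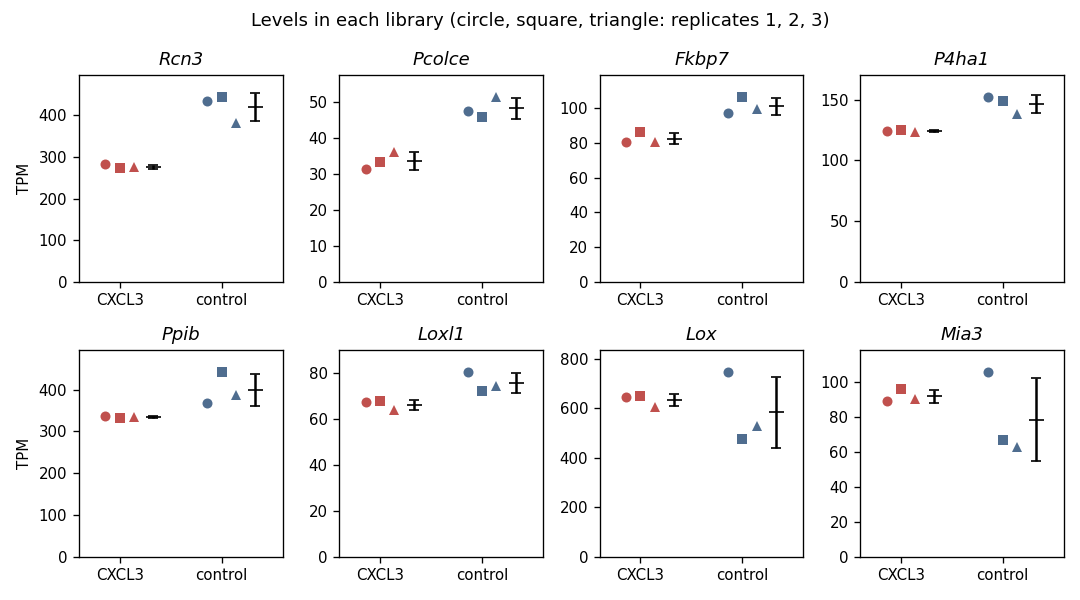
TPM of 8 genes in each library, CXCL3 on the left and controls on the right of each panel, each axis starting at 0; symbols are libraries and the black bar is the mean with SD of 3 libraries. The CXCL3 libraries lie close together and below all controls for Rcn3, Pcolce, Fkbp7, P4ha1, Ppib and Loxl1, while for Lox and Mia3 they lie between control 1 and controls 2 and 3.

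Among the other chaperones the collagen-specific Serpinh1 (HSP47), which binds the folded helix and travels with it to the Golgi, was the most abundant of all 33 genes. It was at 752, 725 and 731 TPM with CXCL3 and at 847, 719 and 766 TPM in controls, with overlapping groups (log2 fold change -0.08 ± 0.07, limma, adjusted p = 0.619). The FK506-binding proteins are prolyl isomerases of the endoplasmic reticulum that speed helix formation. Fkbp7 had the most negative fold change of these, with 80.8, 86.1 and 80.6 TPM with CXCL3 and 97.6, 107 and 99.5 TPM in controls. All CXCL3 libraries of Fkbp7 were below all controls, yet the difference did not pass over all genes (-0.29 ± 0.07, adjusted p = 0.244). Fkbp14, which encodes the isomerase lost in a kyphoscoliotic form of Ehlers-Danlos syndrome, was at 26.4, 24.0 and 26.0 TPM with CXCL3 and at 31.8, 28.6 and 31.1 TPM in controls (-0.25 ± 0.09, 0.378), again without overlap. Fkbp10, which supports lysine hydroxylation in the ends of the chains, was at 94.9 to 103 TPM with CXCL3 and 102 to 118 TPM in controls, and Fkbp9 at 79.3 to 84.5 and 81.5 to 101 TPM. Both overlapped between the groups. All 8 genes of this group had negative fold changes (37.7% of all genes did), 1 was called lower (0.129% of all genes), and 4 had all CXCL3 libraries below all controls (9.31% of all genes).

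Prolyl 4-hydroxylase is built from a catalytic alpha subunit (P4ha1, P4ha2 or P4ha3) and a beta subunit, P4hb, which is also protein disulfide isomerase. P4ha1 was the main alpha subunit, at 124, 125 and 123 TPM with CXCL3 and at 152, 149 and 138 TPM in controls. Its 3 CXCL3 values were nearly identical and all lay below the controls (log2 fold change -0.23 ± 0.07, limma, adjusted p = 0.285). P4ha2 followed the same order, with 78.1, 74.9 and 76.0 TPM against 95.4, 88.7 and 83.4 TPM in controls (-0.22 ± 0.08, 0.363). The less abundant P4ha3 was at 13.1 to 16.0 TPM with CXCL3 and 11.6 to 15.8 TPM in controls and overlapped. The mix of alpha subunits was much the same in both groups, with P4ha1 making up 57.7 ± 0.53% with CXCL3 and 58.6 ± 0.99% in controls (SD, n = 3 each). P4hb was at 563, 571 and 550 TPM with CXCL3 and at 654, 561 and 648 TPM in controls, where control 2 fell among the CXCL3 values (-0.14 ± 0.08, 0.470). P4hb stood at 2.61 ± 0.03 times the summed alpha subunits with CXCL3 and at 2.49 ± 0.24 times in controls, and these ratios overlapped.

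The 3-hydroxylation complex consists of P3h1, its partner Crtap and the isomerase cyclophilin B, encoded by Ppib. Ppib was at 337, 333 and 334 TPM with CXCL3 and at 369, 443 and 387 TPM in controls. The CXCL3 libraries were close together and all lay below the lowest control, control 1 (log2 fold change -0.25 ± 0.08, limma, adjusted p = 0.333). Crtap was at 141, 142 and 146 TPM with CXCL3 and at 159, 146 and 170 TPM in controls, with control 2 just inside the CXCL3 range (-0.14 ± 0.08, 0.466). P3h1, the catalytic member, was at 51.5, 50.1 and 48.1 TPM with CXCL3 and at 59.7, 47.8 and 46.4 TPM in controls, where control 1 was high and the other 2 controls were not (-0.03 ± 0.11, 0.893). Transcripts of the 3 partners were thus unequal, with P3h1 at 0.35 ± 0.02 times Crtap with CXCL3 and 0.33 ± 0.05 times in controls. P3h3 and P3h4, whose proteins form a complex with the lysyl hydroxylase of Plod1 in mice, were at 27.2 to 30.2 and 87.8 to 94.4 TPM with CXCL3, against 31.3 to 38.2 and 92.7 to 99.3 TPM in controls. P3h3 did not overlap between the groups (-0.24 ± 0.10, 0.429) and P3h4 did (-0.09 ± 0.07, 0.526). P3h2, a 3-hydroxylase known mainly from basement membrane collagen, was at 0.39 to 0.56 TPM with CXCL3 and 0.32 to 0.87 TPM in controls and was not tested. Of the 9 genes of proline hydroxylation tested, 8 had a negative fold change (37.7% of all genes did) and 0 passed over all genes. In limma 3 were lower at an unadjusted p under 0.05 (5.65% of all genes), and 4 had all CXCL3 libraries below all controls (9.31% of all genes).

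The genes of lysine modification had fold changes near 0 when all 6 libraries were used. Plod1 acts on lysines of the helix, Plod2 on those of the telopeptides, from which the most stable crosslinks form, and Plod3 also adds glucose. Plod2 was at 200, 204 and 189 TPM with CXCL3 and at 259, 169 and 191 TPM in controls. The 3 CXCL3 libraries lay between control 1 and control 2, and control 3 lay within their range (log2 fold change -0.04 ± 0.15, limma, adjusted p = 0.901). Plod3 was at 145 to 154 TPM with CXCL3 and 141 to 166 TPM in controls (-0.001 ± 0.08, 0.995), and Plod1 at 52.2 to 57.3 and 44.1 to 59.9 TPM (0.09 ± 0.12, 0.696). Colgalt1, the galactosyltransferase that acts on hydroxylysine, was at 126 to 135 TPM with CXCL3 and 112 to 159 TPM in controls (-0.02 ± 0.12, 0.952). Its relative Colgalt2 was at 0 to 0.02 TPM with CXCL3 and 0.02 to 0.04 TPM in controls and was not tested. For all 4 tested genes control 1 was the highest of the 6 libraries and control 2 the lowest. Without control 1 their fold changes ran from 0.07 (Plod3) to 0.21 (Plod1), in a fit where 33.5% of all genes were negative. Without controls 2 and 3 they ran from -0.39 (Plod2) to -0.14 (Plod1), in a fit where 68.9% of all genes were negative. Their direction thus rests on which controls are used. Plod3 overlaps Znhit1 on the opposite strand (mean 82.0 TPM), and the split of reads between them is uncertain.

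Mia3 encodes TANGO1, the receptor at exit sites of the endoplasmic reticulum that loads procollagen into carriers, and it had one of the few positive fold changes. Its level was 89.3, 95.9 and 90.3 TPM with CXCL3 and 106, 66.9 and 62.6 TPM in controls. The CXCL3 libraries lay above controls 2 and 3 and below control 1 (log2 fold change 0.26 ± 0.18, limma, adjusted p = 0.516). Without control 1 Mia3 passed as higher (0.50, adjusted p = 0.00538), and without controls 2 and 3 the sign turned (-0.20, 0.229), so that its direction rests on which controls are used.

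Outside the cell, Bmp1 removes the C-propeptides of fibrillar procollagen and Pcolce binds the propeptide and speeds this cut. Pcolce was at 31.2, 33.2 and 36.1 TPM with CXCL3 and at 47.4, 45.8 and 51.3 TPM in controls. The groups lay well apart, and the difference came next after that of Rcn3 among the 30 genes by p (log2 fold change -0.51 ± 0.09, limma, unadjusted p = 5.90e-04, adjusted p = 0.125). Its relative Pcolce2 was at 16.8, 21.3 and 20.2 TPM with CXCL3 and at 23.9, 22.3 and 32.6 TPM in controls, without overlap and with a wide spread among controls (-0.40 ± 0.16, 0.420). Bmp1 itself was at 292, 291 and 274 TPM with CXCL3 and at 355, 268 and 269 TPM in controls and overlapped (-0.05 ± 0.11, 0.848). With each library's trend with length and GC content removed, as described below, Bmp1 came to -0.24 (limma, adjusted p = 0.0947) and Pcolce to -0.55 (0.0762). There were 0.107 to 0.131 Pcolce transcripts for each of Bmp1 with CXCL3 and 0.133 to 0.191 in controls. The ratio was lower in all 3 CXCL3 libraries than in all 3 controls, though CXCL3 3 (0.131) lay just below control 1 (0.133). Of the 435 ratios among the 30 genes, 35.2% did not overlap between the groups. The longest transcripts of Pcolce and Bmp1 have 2573 and 5365 nt, and the part of length in their ratio was not tested. Tll1, a tolloid protease related to Bmp1, was at 1.06, 0.98 and 1.02 TPM with CXCL3 and 0.75, 0.40 and 0.61 TPM in controls. All CXCL3 libraries of Tll1 were higher, but the levels were below the filter and were not tested, and Tll1 made up only 0.335 to 0.37% of the summed Bmp1 and Tll1 with CXCL3 and 0.149 to 0.226% in controls.

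Lysyl oxidases turn lysines of collagen and elastin into the aldehydes from which crosslinks form. Lox was the most abundant, at 645, 651 and 603 TPM with CXCL3 and at 747, 476 and 529 TPM in controls. As with Mia3, the CXCL3 libraries lay between control 1 and the other 2 controls (log2 fold change 0.14 ± 0.15, limma, adjusted p = 0.653). Loxl2, which acts on collagen IV and is much studied in fibrosis, was at 231, 234 and 209 TPM with CXCL3 and at 350, 224 and 238 TPM in controls (-0.24 ± 0.16, 0.508). Control 1 alone was high, and with 1 library left out the fold change of Loxl2 lay between -0.36 (without control 2) and -0.04 (without control 1). Loxl1, known for its part in elastic fibres, was at 67.3, 67.7 and 63.7 TPM with CXCL3 and at 80.5, 72.2 and 74.4 TPM in controls, the 1 gene of this family whose groups did not overlap (-0.19 ± 0.08, 0.416). Loxl3 was at 12.3 to 13.6 TPM with CXCL3 and 10.6 to 14.7 TPM in controls, and its overlap with Htra2 on the opposite strand (mean 45.3 TPM) leaves the split of reads uncertain. Loxl4 was low, at 2.74, 2.86 and 1.90 TPM with CXCL3 and 2.23, 1.17 and 1.19 TPM in controls, with the highest fold change of the 30 (0.48 ± 0.21, 0.435).

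The balance within the family was compared by ratios and shares, which were chosen after the values were seen and were not tested. Loxl2 stood at 0.359, 0.36 and 0.347 times the level of Lox with CXCL3, and at 0.468, 0.47 and 0.45 times in controls 1, 2 and 3. This ratio kept the controls together although their levels of either gene spread widely, and the groups did not overlap. As a share of the summed TPM of the 5 oxidases, Lox held 67.4 ± 0.29% with CXCL3 and 61.7 ± 0.92% in controls, and Loxl2 held 23.9 ± 0.37% with CXCL3 and 28.6 ± 0.74% in controls (SD, n = 3 each). Of the 10 ratios between 2 members of the family, 6 did not overlap between the groups, against 35.2% of the 435 ratios among all 30 genes. The 10 ratios are built from only 5 genes and are not independent. The longest transcripts of Lox and Loxl2 have 4741 and 5316 nt, with a GC content of 43.89 and 51.71%. As deposited, the log2 fold change was -0.24 for Loxl2 and 0.14 for Lox. With the trend with length and GC content removed, as described below, it was -0.42 for Loxl2 and -0.001 for Lox. The part of length and GC content in the ratio of Loxl2 to Lox was not tested.

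**Figure D3:**
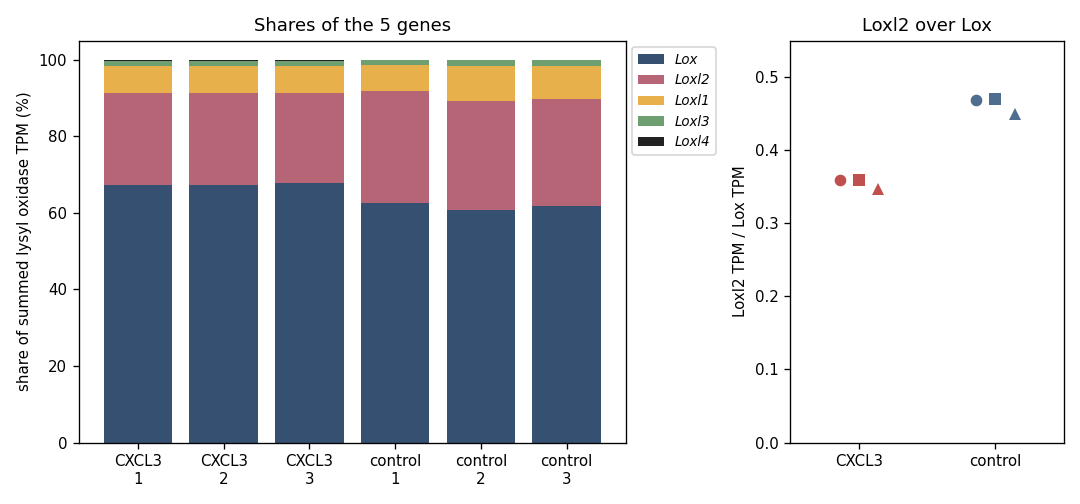
Left, share of each lysyl oxidase gene in the summed TPM of the 5 genes in each library, in percent; right, TPM of Loxl2 divided by TPM of Lox in each library, with an axis from 0. The CXCL3 libraries lie at 0.347 to 0.36 and the controls at 0.45 to 0.47, and the share of Lox is larger in all 3 CXCL3 libraries.

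Fold changes ran with transcript length. Across the 13114 genes with a length, which are not independent, the log2 fold change had a Spearman correlation of 0.45 with the length of the longest transcript, and across the 30 tested genes of collagen maturation 0.29. The 15 with shorter transcripts had a median log2 fold change of -0.14 (13 negative) and the 15 with longer transcripts -0.04 (11 negative). Removal of each library's trend with length and GC content moved the median of the 30 genes to -0.16. In that fit 27 of the 30 were negative, against 51% of all genes. All 6 fibroblast markers tested were negative as well, with a median of -0.28. Rcn3, whose longest transcript has 1462 nt, stayed at -0.57 (limma, adjusted p = 0.0368), again 1 call among the 30, against 0.229% of all genes called lower in that fit. Pcolce came to -0.55 (0.0762), Loxl2 to -0.42 (0.0662) and Bmp1 to -0.24 (0.0947). Lox came to -0.001 (0.997) and Plod1 changed sign to -0.03 (0.811). For 23 of the 30 genes control 1 was the highest control, as for 8278 of the 13139 genes tested. The SD of log2 values was larger among controls for 28 of the 30, as for 10551 of all genes. The median SD of the 30 genes was 0.05 with CXCL3 and 0.14 in controls, and over all genes it was 0.09 with CXCL3 and 0.20 in controls.

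**Figure D4:**
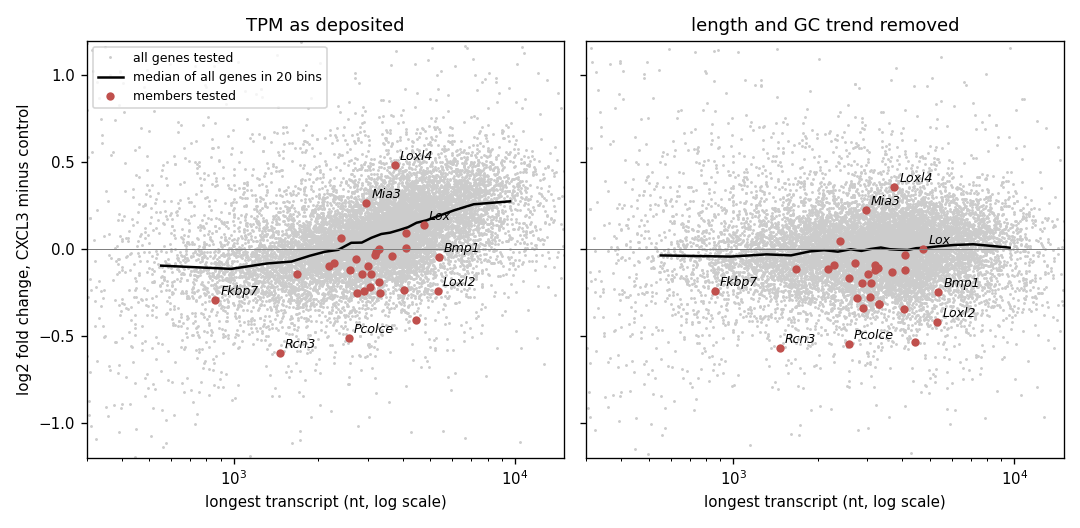
Log2 fold change (CXCL3 minus control) against the length of the longest annotated transcript on a log axis, for TPM as deposited (left) and with the trend with length and GC content removed (right); grey points are all genes tested, the line is their median in 20 bins of length, and red points are the 30 genes. The line climbs with length on the left and is close to flat on the right, and 27 of the 30 red points lie below 0 on the right; 168 genes lie outside the axes.

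The number of the 30 genes that passed differed with the libraries used and their weights. Without control 1, limma called 8 (5 lower: Rcn3, Pcolce, Fkbp7, Ppib and P4ha1; 3 higher: Mia3, Lox and Loxl4), but it then called 32.4% of all genes, 7.17% lower and 25.2% higher. In that fit 17 of the 30 genes were negative and 13 positive, against 33.5% of all genes negative. Without control 2 or 3, or without any 1 CXCL3 library, 0 of the 30 passed, and Rcn3 lost its call. Without controls 2 and 3, which leaves control 1 as the lone control and assumes that it varies as the CXCL3 libraries do, Rcn3 and Loxl2 passed as lower and 29 of the 30 genes were negative, against 0.639% of all genes called and 68.9% negative. With library weights 5 passed (Rcn3, Pcolce, Fkbp7 and Ppib lower, Mia3 higher), against 11% of all genes (3.04% lower and 7.96% higher), and 18 of the 30 were negative, against 34.7% of all genes. Rcn3 was among the genes called without control 1 and with library weights, and it passed in 6 of the 17 alternative settings.

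Among the collagens on which these proteins act, the type III chain gene Col3a1 was lower with CXCL3. It was at 194, 189 and 204 TPM with CXCL3 and at 449, 343 and 430 TPM in controls (log2 fold change -1.05 ± 0.11, limma, adjusted p = 0.0293). No gene passed without control 3, without CXCL3 1 or 2, or without a filter, so Col3a1 lost its call there. Col1a1 and Col1a2, the chains of type I collagen, had 603 ± 33.4 and 459 ± 17.1 TPM with CXCL3, against 721 ± 219 and 553 ± 140 TPM in controls (SD, n = 3 each; adjusted p = 0.573 and 0.503). Their control spread came from control 1, at 973 and 714 TPM, beside which controls 2 and 3 were near the CXCL3 libraries. Of the 10 fibrillar chains tested, 1 was called lower (against 0.129% of all genes) and 0 higher, and 8 had negative fold changes (against 37.7%). With the trend with length and GC content removed, all 10 were negative, against 51% of all genes, with a median of -0.44 in place of -0.23. In that fit Col3a1 (-1.24, limma, adjusted p = 0.0159), Col1a2 (-0.44, 0.0433) and Col5a1 (-0.56, 0.0317), a chain of type V collagen, passed as lower, against 0.229% of all genes, while Col1a1 did not (-0.45, 0.0662). Col5a1 is named after its values were seen, and with TPM as deposited neither it nor Col1a2 passed (limma, adjusted p = 0.511 and 0.503).

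Of the genes around the same pathway, 0 of the 52 tested in the 5 lists beside the fibrillar chains passed over all genes. At an unadjusted p under 0.05, limma found 7 of them lower and 1 higher, where 5.65% of all genes were lower and 5.93% higher. Of the 6 other isomerases and calcium-binding proteins of the secretory pathway, Ppic (cyclophilin C) was at 114 ± 4.77 TPM with CXCL3 and 151 ± 7.06 TPM in controls (adjusted p = 0.117) and Fkbp11 at 35.3 ± 1.82 and 48.4 ± 3.51 TPM (0.157). Sdf4 was at 153 ± 4.13 TPM with CXCL3 and 163 ± 7.75 TPM in controls (0.509). Of the 16 genes of cargo export and retrieval, 9 had a positive and 7 a negative fold change, and 4 had all CXCL3 libraries below all controls (9.31% of all genes did). Kdelr3 encodes a receptor that returns proteins with a KDEL-type signal to the endoplasmic reticulum. It was at 64.4, 66.0 and 65.8 TPM with CXCL3 and 81.6, 89.4 and 99.7 TPM in controls, without overlap and without passing (log2 fold change -0.45 ± 0.09, limma, adjusted p = 0.157). Its relative Kdelr2 was at 120 ± 4.52 TPM with CXCL3 and 145 ± 13.4 TPM in controls (0.328), and Sec24d, a coat protein of procollagen carriers, at 69.0 ± 3.15 and 78.0 ± 4.85 TPM (0.443).

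Of the 17 general folding factors of the endoplasmic reticulum, 8 had a positive and 9 a negative fold change (52.9% negative, against 37.7% of all genes). Their median was -0.05 on the log2 scale, against 0.07 over all genes. All CXCL3 libraries lay below all controls for 4 of the 17 (9.31% of all genes) and above them for 1 (7.92%). Manf, a factor secreted under stress of the endoplasmic reticulum, was at 153 ± 11.5 TPM with CXCL3 and 186 ± 3.90 TPM in controls (limma, adjusted p = 0.266), and the disulfide isomerase Pdia3 at 342 ± 0.80 and 377 ± 13.5 TPM (0.426). The lectin chaperone Canx was at 313 ± 6.16 TPM with CXCL3 and 259 ± 46.5 TPM in controls (0.426), in the opposite direction. Of the 9 cofactor genes tested, Efemp2 (fibulin-4, which brings LOX to elastic fibres) was at 217 ± 3.79 TPM with CXCL3 and 244 ± 9.30 TPM in controls (0.376), and the zinc transporter gene Slc39a13 at 59.7 ± 2.23 and 66.7 ± 3.36 TPM (0.455). Atp7a, the pump that supplies copper to lysyl oxidases, was at 11.7, 10.5 and 9.46 TPM with CXCL3 and at 12.0, 2.04 and 3.02 TPM in controls (0.437), so that controls 2 and 3 alone were low. Of the 4 propeptide proteases tested beside Bmp1, Furin was at 72.3 ± 3.71 TPM with CXCL3 and 60.6 ± 13.1 TPM in controls (0.468), and the N-proteinase genes Adamts2 (27.9 ± 1.19 and 31.0 ± 5.24 TPM, 0.606) and Adamts14 (19.2 ± 0.96 and 21.9 ± 8.06 TPM, 0.777) overlapped between the groups.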

How the data were processed

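RNA was sequenced from primary mouse fibroblasts, 3 libraries with CXCL3 and 3 controls. TPM values per gene were deposited by the authors, and fastp, HISAT, RSEM and build GRCm38.p5 are named per the submitters' processing notes, with versions, annotation release and strand setting not given in the sources used here. TPM keeps no read depth, so the depth per library is unknown. Column sums were 984281 to 986705 TPM, with 19493 to 20270 genes above 0 and no identical libraries. Symbols, lengths and positions came from GENCODE M21, which matched 51633 of 51912 IDs, and promoters from RefSeq.

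Genes with at least 1 TPM in at least 3 libraries were fitted as log2(TPM + 1) with limma 3.58.1 (R 4.3.3, moderated variance with an intensity trend), CXCL3 minus control, and p-values were adjusted by Benjamini and Hochberg over all genes kept. Fold changes on this scale understate changes of low genes. All 33 genes are named. In each pathway list the genes that passed are named, or otherwise up to 3 with the smallest p, and Col1a1, Col1a2 and Col3a1. The 33 genes and all lists were chosen with earlier results of these data known. Alternatives were other pseudocounts, filters, scalings, variance models, library weights, a replicate block, removal of the trend with length and GC content, and libraries left out.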

Additional observations from a re-analysis of the deposited data

How the results depend on the processing

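Of all genes, 21 passed. The count was 1 without the variance trend, 43 with the length and GC trend removed, 1446 with library weights, 5 with median-of-ratios scaling, 0 without a filter (limma, 1928 at an unadjusted p under 0.05), 84 without controls 2 and 3, and 0 to 4254 with 1 library left out. The counts of 0 came without control 3 and without CXCL3 1 or 2, where limma found 875, 765 and 799 genes at an unadjusted p under 0.05. Without control 1 the count was 4254, without control 2 it was 10 and without CXCL3 3 it was 1. Of the 30 collagen maturation genes, 1 passed. That count was 0 without the variance trend, with median-of-ratios scaling, without a filter, with pseudocount 0.1 and with quantile normalization, 5 with library weights, 2 without controls 2 and 3, and 0 to 8 with 1 library left out (9 of the 30 had an unadjusted p under 0.05). Their median was -0.25 without controls 2 and 3 and -0.16 to -0.05 with 1 library left out. The cause of these moves was not tested.

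A replicate block left 12 genes and 0 of the 30, with an adjusted p of 0.058 for Rcn3. Same-numbered libraries had correlations of 0.12, -0.01 and 0.08, and not every library correlated best with its own number, so the numbers were not taken as pairs.

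Signs reversed for 12 of the 30 genes, none of which had passed. With median-of-ratios scaling P4ha3 came to -0.00953 and Loxl3 to -0.0629. With quantile normalization P4ha3 came to -0.0381, Loxl3 to -0.0976, Plod2 to 0.00703, Plod3 to 0.029, Colgalt1 to 0.00808 and Bmp1 to 0.00226. With the length and GC trend removed Loxl3 came to -0.119, Plod1 to -0.0306 and Lox to -0.00108. With library weights Plod2 came to 0.0736, Plod3 to 0.0479, Colgalt1 to 0.058, Bmp1 to 0.0525, P3h1 to 0.0549 and Rcn1 to 0.00641. Without controls 2 and 3 P4ha3 came to -0.0931, Loxl3 to -0.18, Plod1 to -0.136, Lox to -0.24 and Mia3 to -0.205. With 1 library left out the ranges were -0.065 to 0.144 for P4ha3, -0.11 to 0.104 for Loxl3, -0.168 to 0.136 for Plod2, -0.0512 to 0.069 for Plod3, -0.137 to 0.112 for Colgalt1, -0.114 to 0.0886 for Bmp1, -0.00807 to 0.209 for Plod1, -0.0974 to 0.0809 for P3h1, -0.13 to 0.0435 for Rcn1 and -0.152 to 0.000551 for Fkbp9.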
